A study of Mus musculus with 6 samples.

Results

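Flavin-containing monooxygenases (FMOs) and aldehyde oxidases (AOXs) were followed through 6 genes, Fmo1, Fmo2, Fmo4, Fmo5, Aox1 and Aox3, matched by name among the 54532 genes of the deposited count table. All 6 passed the filter on low counts, which left 13706 genes to test. RNA sequencing covered whole liver of mice aged 5 weeks, in 3 libraries from animals that lack Fam210a in hepatocytes (Fam210aHKO) and 3 from controls (Ctrl). FAM210A is a mitochondrial membrane protein, and the comparison asks what its loss from hepatocytes does to the young liver. The labels give neither the Cre line behind the deletion, nor the strain, the sex or the alleles of Ctrl. Since the labels number the samples and do not say that each is its own animal, p-values here cover only the variation among these libraries, which may be technical.

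Both families add oxygen to foreign and endogenous compounds, beside the cytochrome P450 enzymes. FMOs sit in the endoplasmic reticulum, hold a flavin and take electrons from NADPH to oxidise soft nitrogen and sulfur atoms, as in many drugs and in hypotaurine. AOXs are soluble enzymes with a molybdenum cofactor, iron-sulfur clusters and a flavin, and they oxidise aldehydes such as retinaldehyde, N-methylnicotinamide and the nitrogen rings of many drugs. In mouse liver several genes of both families are known to differ between the sexes.

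Of the libraries as a whole, totals ranged from 12.5 to 19.7 M counts in Fam210aHKO and from 13 to 16.9 M in Ctrl (1 M is 1e6). Fam210a, the targeted gene, had 31.7, 28.6 and 44.2 CPM in Fam210aHKO and 119, 136 and 162 CPM in Ctrl (CPM, counts per 1e6 scaled by TMM factors), so all 3 libraries titled Fam210aHKO carried less of it, including replicates 2 and 3, whose genotype label names another gene number. The Y-linked gene Ddx3y was present in all 6 libraries (from 91.4 to 117 CPM in Fam210aHKO and from 99.9 to 138 CPM in Ctrl), and Xist was at most 0.206 CPM in Fam210aHKO and 0.487 CPM in Ctrl. At an adjusted p under 0.05 by edgeR's quasi-likelihood test, 14% of tested genes were higher and 13.5% lower in Fam210aHKO. TMM factors averaged 1.17 in Fam210aHKO and 0.855 in Ctrl, and scaling by library totals instead raised the median fold change by 0.452 log2 units. Every fold change below that is not given with library totals is therefore relative to the median gene after TMM.

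Among the 6 genes, 3 fell in Fam210aHKO livers (Fmo1, Fmo5 and Aox3), 0 rose, and 3 did not pass (Fmo2, Fmo4 and Aox1), where 27.5% of all tested genes were called in either direction. Counted as CPM of the groups that did not overlap, the same 3 genes were lower and 0 were higher, against 42.7% of tested genes in either direction (20.7% lower and 22% higher). Their median log2 fold change was -0.7, against 0.0166 over all tested genes; with library totals these medians were -0.23 and 0.47. At an unadjusted p under 0.05 the same test gave 3 lower and 0 higher, and DESeq2 and limma-voom also called 3 lower and 0 higher. With library totals Aox3 alone was called lower, where 6.34% of tested genes were, and Fmo4 alone higher, where 42.6% were. The 6 genes, like the lists of other genes below, were chosen with earlier results of these data known. Counts and medians set against all tested genes are therefore not tests of these sets. In whole tissue, fewer cells of a type and less RNA per cell cannot be told apart.

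Fmo1, Fmo2 and Fmo4 lie side by side on the minus strand of chromosome 1 (mm10), Fmo4 from 162793188 to 162813972, Fmo1 from 162829561 to 162866610 and Fmo2 from 162874317 to 162898726. Fmo5 stands apart on chromosome 3, from 97628804 to 97655282 on the plus strand. Aox1 (58029931 to 58106413) and Aox3 (58113130 to 58200698) follow each other on the plus strand of chromosome 1 with a gap of 6716 bases and no annotated gene between them. Their Ensembl identifiers are ENSMUSG00000026692 (Fmo4), ENSMUSG00000040181 (Fmo1), ENSMUSG00000040170 (Fmo2), ENSMUSG00000028088 (Fmo5), ENSMUSG00000063558 (Aox1) and ENSMUSG00000064294 (Aox3). These coordinates were identical in GENCODE mouse release M21 for all 6 genes. The longest annotated coding sequences of the 4 FMO genes were between 60.5% and 63.6% identical at aligned bases, and those of Aox1 and Aox3 were 67.1% identical. No stretch of 50 bases of any of the 6 occurred in the transcripts of another FMO or AOX gene. Of the 50-base stretches of Fmo1, 7.02% occurred in transcripts of other genes; the share was 0.434% for Fmo5, 0.612% for Aox1 and 0 for the others, and the handling of reads that match several places is not given in the labels or processing notes.

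The sequences before 3 start sites are shown, since they belong to the pair of neighbours with the widest difference in response, Aox3 and Aox1, and to the most abundant member, Fmo5. Each is the 250 bases before the RefSeq start site (GRCm38.p6, plus strand), at chr1:58112886-58113135 for Aox3, chr1:58029719-58029968 for Aox1 and chr3:97628769-97629018 for Fmo5, printed 5′ to 3′ with motif matches in capitals (the match before Aox1 and that before Fmo5 are on the opposite strand, so the capitals are the reverse complement). The RefSeq start sites lie inside the genes as annotated in the count table, so that 6 bases of the Aox3 window, 38 of the Aox1 window and 215 of the Fmo5 window are within the annotated gene. Of the Fmo4 window 250 bases are within its annotated gene, and of the 2 Fmo2 windows 233 and 0. The start site of the Fmo2 window with 0 lies outside the annotated gene.
Aox3: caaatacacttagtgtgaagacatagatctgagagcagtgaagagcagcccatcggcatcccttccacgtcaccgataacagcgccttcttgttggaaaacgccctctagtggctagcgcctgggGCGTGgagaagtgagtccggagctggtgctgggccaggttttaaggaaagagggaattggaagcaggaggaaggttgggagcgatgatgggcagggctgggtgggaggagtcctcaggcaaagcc
Aox1: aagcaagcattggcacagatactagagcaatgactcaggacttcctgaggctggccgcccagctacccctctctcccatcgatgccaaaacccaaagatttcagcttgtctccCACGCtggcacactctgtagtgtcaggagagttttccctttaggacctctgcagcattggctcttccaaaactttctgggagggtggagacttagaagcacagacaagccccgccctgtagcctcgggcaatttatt
Fmo5: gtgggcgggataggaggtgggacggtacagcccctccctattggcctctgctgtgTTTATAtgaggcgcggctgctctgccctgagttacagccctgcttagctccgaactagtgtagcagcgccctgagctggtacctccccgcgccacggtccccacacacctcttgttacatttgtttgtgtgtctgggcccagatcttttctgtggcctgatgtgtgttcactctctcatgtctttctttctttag

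Windows of the same length were found for 5 of the 6 genes (Fmo1 had none, Fmo2 had 2 start sites) and were searched on both strands for 7 motifs. The core of the xenobiotic response element, GCGTG, which the aryl hydrocarbon receptor (AHR) binds, occurred in both AOX windows, from position -125 to -121 before the Aox3 start and, on the opposite strand, from -137 to -133 before the Aox1 start; 28.2% of 32851 promoter windows hold it. The Fmo5 window, most of it within the annotated gene, held TATAAA on the opposite strand from -195 to -190 (12.4% of windows), and the Fmo2 window that lies mostly within its gene held CAAAGT, a motif of HNF4, on the opposite strand from -33 to -28 (12.6%). No window of the 5 genes held the antioxidant response element TGACNNNGC (10.2% of windows), the C/EBP-ATF element TGATGNAA (3.45%), the STAT5 element TTCNNNGAA (7.02%) or the HNF1 motif GTTAAT (6.43%). None of the matches overlapped each other, and a match to letters is not a bound site.

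Fmo5 and Fmo1, the abundant FMO genes among the 6, were both lower in knockout livers, to between 55.4% and 57% of their control level. FMO5 differs from its relatives in carrying out Baeyer-Villiger oxidations of ketones. Fmo5 had 439, 403 and 477 CPM in Fam210aHKO, against 931, 566 and 818 CPM in Ctrl. The groups did not overlap, and Ctrl replicate 2 was the control nearest to the knockout libraries. Fmo5 thus stood at 57% of Ctrl (log2 fold change -0.81, SE 0.203, edgeR adjusted p = 0.0122; -0.37 and 0.184 with library totals). The call ended without Fam210aHKO replicate 2 (adjusted p = 0.0531) or Ctrl replicate 1 (0.05005).

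FMO1 oxidises hypotaurine to taurine in mice, besides many drugs. Fmo1 had 154, 180 and 205 CPM in Fam210aHKO, against 347, 349 and 277 CPM in Ctrl. All 3 knockout libraries were below all 3 controls. Fmo1 stood at 55.4% of Ctrl (log2 fold change -0.85, SE 0.165, edgeR adjusted p = 0.00308; -0.4 and 0.0682 with library totals). Leaving out any 1 library kept the log2 fold change between -0.97 and -0.77.

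The ratio of Fmo1 to Fmo5 within a library, which no scaling can change, did not separate the groups. Per length, Fmo5 exceeded Fmo1 by 3.16, 2.49 and 2.59 times in Fam210aHKO and by 2.98, 1.8 and 3.28 times in Ctrl. The mean log2 ratio of Fmo1 to Fmo5 was -1.45 ± 0.186 in Fam210aHKO and -1.38 ± 0.464 in Ctrl (SD, n = 3 each), a difference of -0.07 (exact two-sided permutation p = 0.9, 0.964 after Benjamini-Hochberg adjustment over the 15 pairs of the 6 genes; 3 against 3 cannot go below 0.1).

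Fmo2 and Fmo4 were the minor FMO genes, and neither passed the test. FMO2 is best known as the FMO of lung in most mammals, and the substrates of FMO4 are less well known. Fmo2 had 32.1, 31 and 42 CPM in Fam210aHKO, against 47, 82.8 and 27.1 CPM in Ctrl. Its controls spanned a wider range than the whole knockout group and lay on both sides of it. The log2 fold change was -0.58 (95% interval from -1.27 to 0.12, edgeR adjusted p = 0.206), and it depended on single controls, being -0.09 without Ctrl replicate 2 and -0.91 (adjusted p = 0.0267) without Ctrl replicate 3.

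Fmo4 had 14.5, 21.7 and 16.1 CPM in Fam210aHKO, against 9.91, 21.8 and 11.2 CPM in Ctrl. Ctrl replicate 2 was level with the highest knockout library, and the other two controls were below all 3. The log2 fold change was 0.28 (95% interval from -0.34 to 0.91, edgeR adjusted p = 0.499). Fmo4 was called higher without Ctrl replicate 2 (0.71, adjusted p = 0.0398) and with library totals (0.76, adjusted p = 0.0306), while leaving out other single libraries brought the value down to as little as 0.07. The ratio of Fmo1 to Fmo4, which was not a planned ratio, was lower in every Fam210aHKO library than in any Ctrl library. The mean difference was -1.21 log2 units (exact permutation p = 0.1, the smallest possible, and 0.3 adjusted over the 15 pairs). Without overlap at the same p were also Fmo4 to Aox3 (2.26), Fmo5 to Aox1 (-0.33), Fmo5 to Aox3 (1.12) and Aox1 to Aox3 (1.45).

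**Figure D1:**
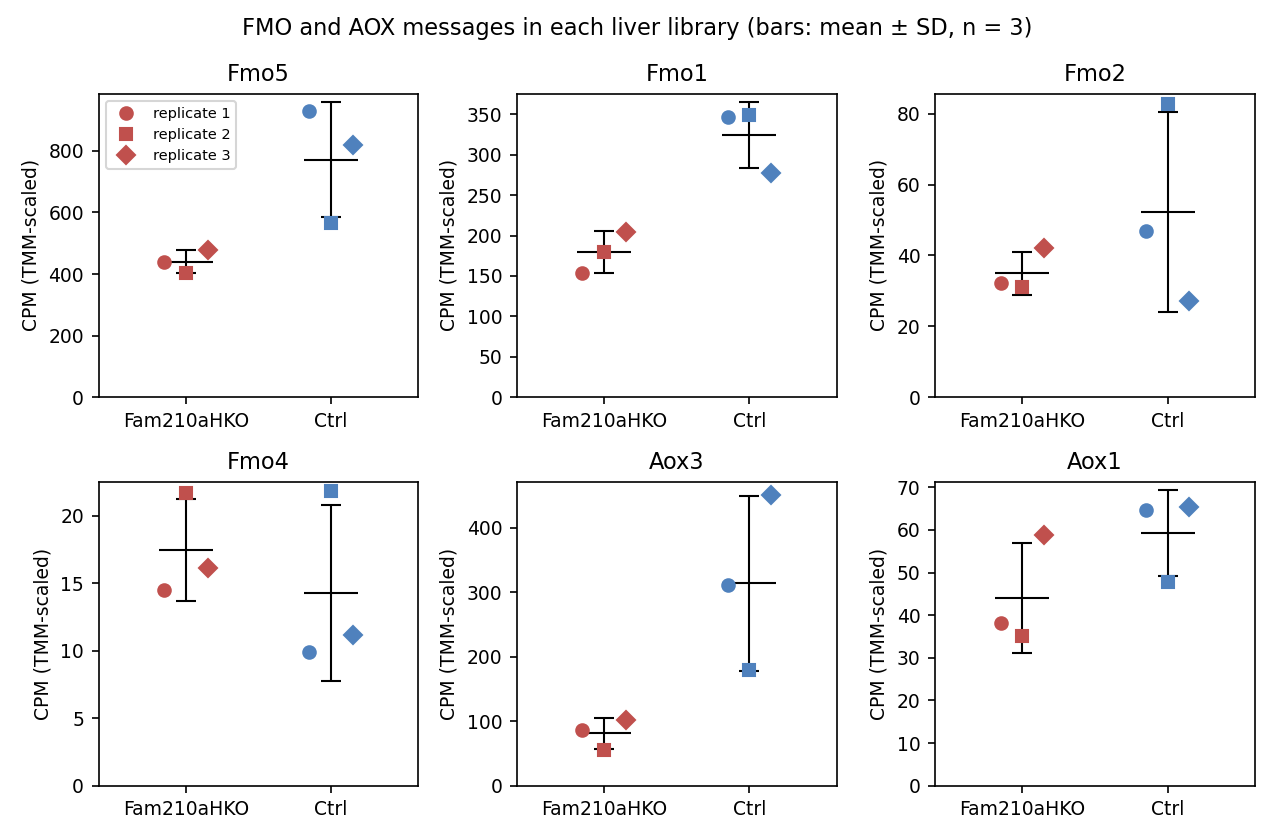
TMM-scaled CPM (vertical axis, from 0) of the 6 genes in each Fam210aHKO (left, red) and Ctrl (right, blue) library, with marker shape for the replicate number and black bars for mean ± SD (n = 3). The groups separate for Fmo5, Fmo1 and Aox3 (for Aox3, 54.6 to 102 CPM in Fam210aHKO and 179 to 451 CPM in Ctrl) and overlap for Fmo2, Fmo4 and Aox1.

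Aox3 showed the largest change of the 6 genes, and its neighbour Aox1 did not pass the test. Both encode AOXs of mouse liver, where AOX3 is the main form and human liver has only AOX1. Aox3 had 86.5, 54.6 and 102 CPM in Fam210aHKO, against 311, 179 and 451 CPM in Ctrl. The highest knockout library was below the lowest control, and the controls differed widely among themselves. Aox3 fell to 25.9% of Ctrl (log2 fold change -1.95, SE 0.317, edgeR adjusted p = 0.00113; -1.52 and 0.00317 with library totals). Only 1.92% of tested genes had a lower fold change. The call held in all the alternatives run, with log2 fold changes between -2.24 and -1.62 when single libraries were left out.

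Aox1 had 38.1, 35.2 and 58.9 CPM in Fam210aHKO, against 64.7, 47.7 and 65.5 CPM in Ctrl. Fam210aHKO replicate 3 was inside the control range and the other two knockout libraries were below it. The log2 fold change was -0.43 (95% interval from -0.89 to 0.03, edgeR adjusted p = 0.158), and 0.01 with library totals. With the replicate number as a block, Aox1 was called lower (-0.45, adjusted p = 0.025), each Fam210aHKO library being below the Ctrl library of its number by -0.76, -0.44 and -0.15 log2 units. Without Fam210aHKO replicate 3 it was called lower too (-0.69, adjusted p = 0.0184).

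The ratio within the AOX pair did not overlap between the groups, at a p that 3 against 3 libraries cannot bring under 0.1. Per length, Aox3 exceeded Aox1 by 2.8, 1.92 and 2.15 times in Fam210aHKO, against 5.94, 4.63 and 8.51 times in Ctrl. The log2 ratio of Aox1 to Aox3 was higher by 1.45 in Fam210aHKO (-1.18 ± 0.281 in Fam210aHKO and -2.62 ± 0.441 in Ctrl, SD, n = 3 each; exact two-sided permutation p = 0.1, 0.3 adjusted over the 15 pairs, so the difference did not pass). Without single libraries the difference lay between 1.22 and 1.65. Aox1 made up 26.3%, 34.3% and 31.8% of the summed AOX message per length in Fam210aHKO and 14.4%, 17.8% and 10.5% in Ctrl.

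**Figure D2:**
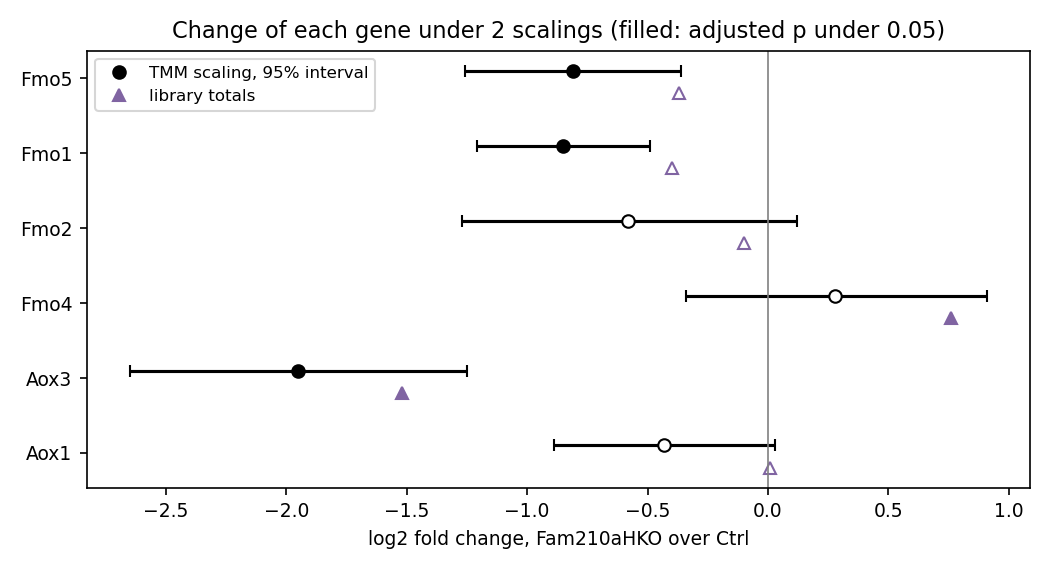
Log2 fold change of Fam210aHKO over Ctrl (horizontal axis) for each gene, as circles with 95% intervals under TMM scaling and as triangles with library totals; filled symbols have an adjusted p under 0.05. Aox3 is the 1 gene called lower under both scalings (-1.95 and -1.52), and the estimate for Aox1 moves to 0.01 with library totals.

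Set in order of level per length (RPKM, counts per kilobase and per 1e6 TMM-scaled counts), the genes ran Fmo5, Fmo1, Aox3, Fmo2, Aox1 and Fmo4 in both groups. In Fam210aHKO the means were 77.5 ± 6.54, 28.5 ± 4.01, 11.5 ± 3.46, 6.25 ± 1.08, 5.07 ± 1.49 and 4.7 ± 1.01 RPKM, and in Ctrl 136 ± 33, 51.5 ± 6.46, 44.6 ± 19.3, 9.32 ± 5.03, 6.82 ± 1.16 and 3.86 ± 1.77 RPKM (SD, n = 3 each). Fmo5 was above Fmo1 in all 6 libraries. Fmo1 was above Aox3 in all 3 Fam210aHKO libraries, whereas in Ctrl replicate 3 Aox3 was the higher of the pair. Fmo2 and Aox1 changed places between Ctrl libraries, and Aox1 and Fmo4 changed places within both groups, so these neighbours were not separated beyond their spread.

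Within the message of the 4 FMO genes, the shares of 3 genes overlapped between the groups and that of Fmo4 did not. Of the summed RPKM of Fmo1, Fmo2, Fmo4 and Fmo5, Fmo5 held 66.3% ± 2.79 in Fam210aHKO and 67.2% ± 9.12 in Ctrl, and Fmo1 held 24.3% ± 2.08 in Fam210aHKO and 26% ± 4.86 in Ctrl (SD, n = 3 each). Fmo2 made up 5.14%, 4.98% and 5.83% in Fam210aHKO, inside the span of 3.64%, 8.4% and 2.47% in Ctrl. Fmo4 made up 3.51%, 5.27% and 3.39% in Fam210aHKO, against 1.16%, 3.35% and 1.54% in Ctrl, so that its lowest knockout library lay just above its highest control. The sum itself was 112, 111 and 128 RPKM in Fam210aHKO, against 230, 176 and 196 RPKM in Ctrl, with no overlap. The summed AOX message was 16.7, 11.8 and 21.3 RPKM in Fam210aHKO, against 51.7, 30.9 and 71.6 RPKM in Ctrl, and did not overlap either. Fmo6 and Fmo9 had at most 3 counts in any library.

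**Figure D3:**
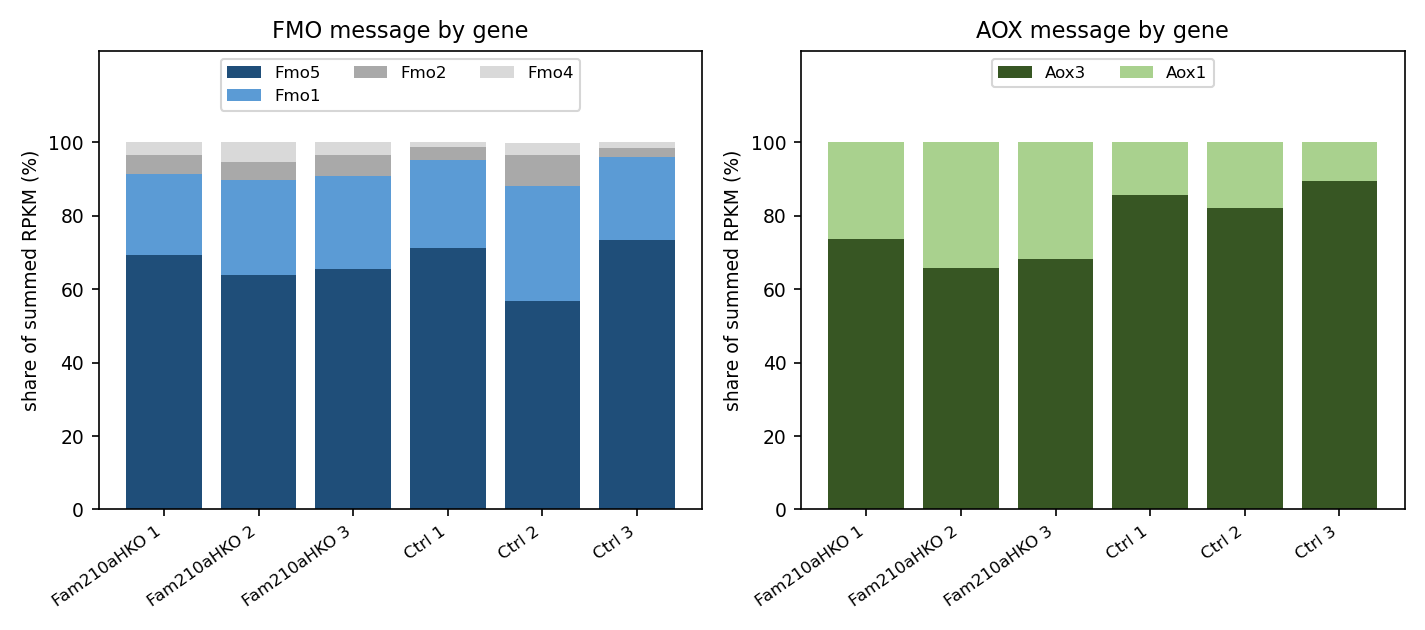
Share of each gene (percent of the summed RPKM of its family, vertical axis) in every library, with the 3 Fam210aHKO libraries left of the 3 Ctrl libraries. Fmo5 takes between 64% and 69.4% of the FMO message in Fam210aHKO and between 56.7% and 73.5% in Ctrl, and Aox1 takes between 26.3% and 34.3% of the AOX message in Fam210aHKO and between 10.5% and 17.8% in Ctrl.

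Xdh, the xanthine oxidoreductase that is the closest relative of the AOXs in build and cofactors (coding sequence 61.3% identical to Aox1), did not pass, with 107 ± 10.9 CPM in Fam210aHKO and 111 ± 7.62 CPM in Ctrl (log2 fold change -0.05, 95% interval from -0.36 to 0.25, edgeR adjusted p = 0.808). Aox2 had at most 2 counts in any library and Aox4 had 0 in all 6. Of 6 matched genes of the molybdenum cofactor and the other enzymes that use it, 4 fell and 0 rose. Among all tested genes 13.5% were lower and 14% higher. Mocs1, of the first step of cofactor synthesis, fell (61.1 ± 7.77 CPM in Fam210aHKO and 123 ± 16.5 CPM in Ctrl; log2 fold change -1, adjusted p = 0.000884). Mocos, the sulfurase that activates AOX and xanthine oxidoreductase, fell as well (33.7 ± 5.21 CPM in Fam210aHKO and 56.3 ± 6.01 CPM in Ctrl; log2 fold change -0.74, edgeR adjusted p = 0.00593), though not when scaled by library totals (0.175). Sulfite oxidase, Suox, showed a log2 fold change of -1.04 (adjusted p = 0.00031). With library totals 2 of these 6 cofactor genes were lower and 1 higher, where 6.34% of tested genes were lower and 42.6% higher.

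Among enzymes of the pathways that supply, share or lie beside the substrates of FMO1, the AOXs and xanthine oxidoreductase, 3 of 7 tested fell and 0 rose. The shares over all tested genes were 13.5% lower and 14% higher. With library totals 1 of the 7 was lower and 1 higher, where 6.34% of tested genes were lower and 42.6% higher. The higher was Ado, which makes hypotaurine from cysteamine (log2 fold change 0.82 and adjusted p = 0.00191, against 0.37 and 0.0951 with TMM). Cdo1, which makes the precursor of hypotaurine from cysteine, fell (961 ± 223 CPM in Fam210aHKO and 2350 ± 141 CPM in Ctrl; log2 fold change -1.29, adjusted p = 0.00187). The retinaldehyde dehydrogenase gene Aldh1a1 (-0.79, adjusted p = 0.0127) and urate oxidase, Uox (-0.77, adjusted p = 0.00934), fell under TMM scaling but were not called with library totals (0.198 and 0.186). Of 5 electron carriers, Cyb5r1 rose (49.5 ± 16.8 CPM in Fam210aHKO and 6.36 ± 0.715 CPM in Ctrl, log2 fold change 2.96, adjusted p = 2e-05). Cyb5a (-0.61) and Cyb5r3 (-0.69) fell, though not with library totals (adjusted p = 0.506 and 0.258), which gave 2 of the 5 higher and 0 lower.

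Of 11 regulators of drug-metabolism genes, 5 fell and 0 rose, where 13.5% of tested genes were lower and 14% higher. With library totals 2 fell and 1 rose, where 6.34% of tested genes were lower and 42.6% higher. Nr1i3, which encodes the constitutive androstane receptor, fell (11.9 ± 2.7 CPM in Fam210aHKO and 36.8 ± 8.05 CPM in Ctrl; log2 fold change -1.63, edgeR adjusted p = 0.000317). Cebpa (-1.25, adjusted p = 0.000759) and Hnf4a (-0.77, adjusted p = 0.0119; 0.209 with library totals), which encode hepatocyte transcription factors, fell too. Ahr (-0.31, adjusted p = 0.153) and Nfe2l2, which encodes NRF2 (0.26, adjusted p = 0.187; 0.71 and 0.00195 with library totals), did not pass under TMM scaling. Of 6 target genes of NRF2, a regulator that can induce Aox1, 4 rose, among them Srxn1 (1.82), Hmox1 (1.08) and Nqo1 (1.04). Gclm (-0.46, adjusted p = 0.0944) and Gclc (-0.13, adjusted p = 0.762) were not called. Of 4 tested AHR targets, Cyp1b1 (1.28, adjusted p = 0.0143) and Tiparp (0.68, adjusted p = 0.0171) rose, while Cyp1a2 stood at -0.22 (adjusted p = 0.493). With library totals 4 of the 6 NRF2 targets and 3 of the 4 AHR targets were higher, and 0 were lower. Among all tested genes 42.6% were higher on that scale.

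**Figure D4:**
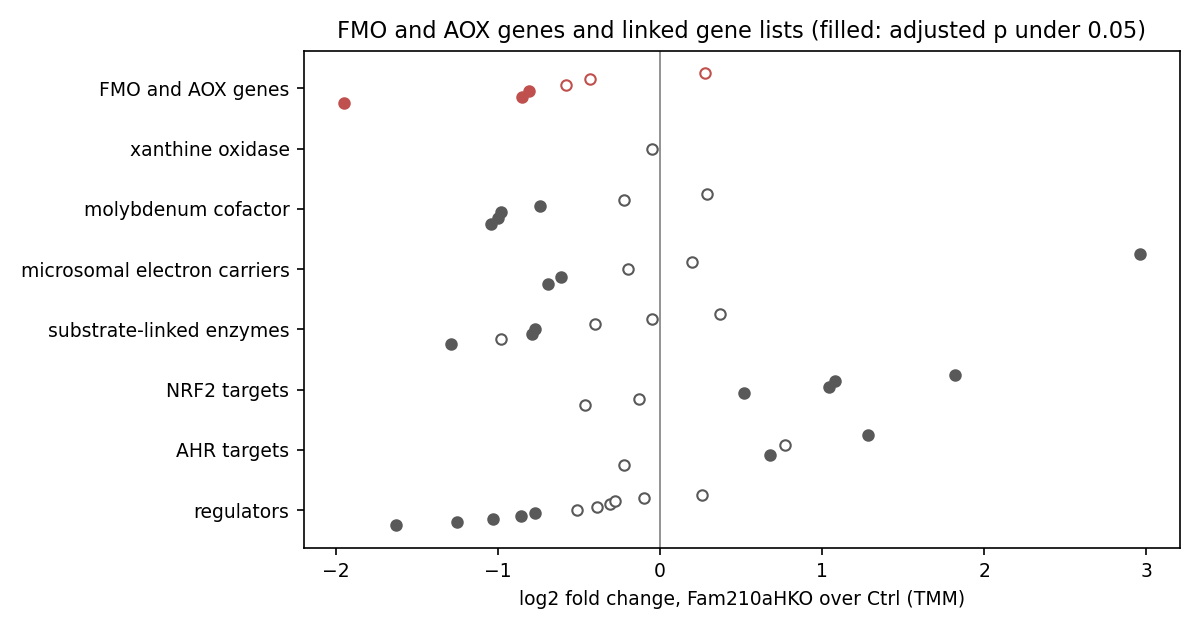
Log2 fold change of Fam210aHKO over Ctrl under TMM scaling (horizontal axis) for the 6 genes (red) and the tested genes of 7 linked lists (grey), 1 point per gene, filled where the adjusted p is under 0.05. The 6 genes lie between -1.95 (Aox3) and 0.28 (Fmo4), and Xdh is at -0.05. The electron carriers are the row labelled microsomal, a label that does not hold for every gene in it.

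Sex-biased liver genes moved with these changes, in libraries that all carried Y-linked messages. Of 15 genes with male bias 15 fell, where 13.5% of all tested genes were lower. Their median log2 fold change was -3.82 (-3.35 with library totals). Their summed level was 424 to 502 CPM in Fam210aHKO and 6930 to 13200 CPM in Ctrl. Serpina1e alone gave 3870, 5670 and 8770 CPM of the sum in Ctrl. The transporter gene Slco1a1, for example, had 4.49 ± 1.7 CPM in Fam210aHKO and 510 ± 166 CPM in Ctrl. Of 13 tested genes with female bias 8 rose and 0 fell, where 14% of all tested genes were higher. The summed level of the list was 1050 to 1960 CPM in Fam210aHKO and 52.5 to 168 CPM in Ctrl. Cyp2a4, a steroid hydroxylase gene, had 946 ± 264 CPM in Fam210aHKO and 8.6 ± 7.99 CPM in Ctrl (log2 fold change 6.79, edgeR adjusted p = 8.87e-05). Both lists were chosen with earlier results of these data known, so these counts are not a test of the lists. The part of sex-biased genes in the changes of the FMO and AOX genes was not tested.

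Cell type markers moved as well. Of 7 hepatocyte markers 4 fell, where 13.5% of all tested genes were lower and 14% higher. With library totals 4 were lower and 1 higher, where 6.34% of tested genes were lower and 42.6% higher. The summed level of the hepatocyte markers was 96300 to 120000 CPM in Fam210aHKO and 157000 to 240000 CPM in Ctrl. Most of it came from Alb, which was not called (adjusted p = 0.449). Ahsg went the other way, without overlap of the groups (13800 ± 934 CPM in Fam210aHKO and 10000 ± 925 CPM in Ctrl). It was not called with TMM (log2 fold change 0.46, adjusted p = 0.364) and was the 1 higher with library totals (0.91 and 0.0347). Cholangiocyte markers had 2 of 4 tested members higher (135 to 274 CPM summed in Fam210aHKO and 39.4 to 58.6 CPM in Ctrl), of which Spp1 alone gave 217, 127 and 256 CPM in Fam210aHKO and 49.7, 44.8 and 32.7 CPM in Ctrl. Krt19 and Sox9 overlapped between the groups and were not called. Stellate cell and fibroblast markers had 2 of 8 higher (478 to 707 CPM in Fam210aHKO and 367 to 427 CPM in Ctrl) and macrophage markers 3 of 8 higher (305 to 595 CPM in Fam210aHKO and 372 to 492 CPM in Ctrl). With library totals the higher counts were 3 of 4 for cholangiocyte, 6 of 8 for stellate and 5 of 8 for macrophage markers. Sinusoidal endothelial markers had 2 of 8 lower (237 to 386 CPM in Fam210aHKO and 358 to 480 CPM in Ctrl), Stab2 and Clec4g, and 0 with library totals (adjusted p = 0.293 and 0.881). Of 4 tested lymphocyte markers edgeR called 0 (3.4 to 5 CPM in Fam210aHKO and 3.47 to 5.18 CPM in Ctrl). No marker of these lists was at 0 in all 6 libraries. Their part in the results was not tested.

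Likeness of pattern was measured as the root mean square distance between log2 CPM values over the 6 libraries, each gene centred on its own mean, among the 7892 tested genes whose mean reached 10 CPM. Nearest to Fmo5 were Aqp9, a glycerol channel (0.0463 log2 units), and Sephs2, of selenium metabolism (0.069), and nearest to Fmo1 were Sar1b, of vesicle export from the endoplasmic reticulum (0.0641), and Acnat2 (0.0791). For Aox1 they were Fbxo21 (0.0418) and Slc8b1 (0.0742), for Fmo2 Cyp4a14 (0.175) and Peg3 (0.2), and for Fmo4 Tmem161b (0.124) and Nmd3 (0.135). Aox3 had no gene within 0.2, its nearest being Mcm10 (0.22) and Cyp2d40 (0.265), and Fmo2 had 1 and Fmo4 17, while 219 genes lay within 0.2 of Fmo1, 214 of Aox1 and 279 of Fmo5.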

How the data were processed

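Poly(A)-selected RNA of 6 liver samples was sequenced, and samples were grouped by their titles. The authors deposited whole-number counts per Ensembl gene, not normalized, and FPKM values. The library size behind the deposited FPKM, worked out from counts and gene lengths, was 81.6% to 86.3% of the count total in Fam210aHKO and 55.4% to 60.1% in Ctrl. The submitters' processing notes name mm10 as the build and, as tools, STAR, featureCounts, Trimmomatic, FastQC and DESeq2. They give no version, strand setting or annotation.

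Fam210aHKO was compared with Ctrl in edgeR 4.0.16 (R 4.3.3) with group as the only factor: filterByExpr with a minimum count of 10, TMM scaling and a two-sided quasi-likelihood test. Adjustment over all 13706 genes followed Benjamini and Hochberg. SE is the absolute log2 fold change over the square root of F, and adjusted p-values with no tool named are edgeR's. A count of 3 was 0.132 to 0.206 CPM in Fam210aHKO and 0.202 to 0.261 CPM in Ctrl. Counts were also simulated for this comparison (13706 genes, 200 of them changed, evenly in both directions). The test recovered 78% of the genes changed by 1 log2 unit and 100% of those changed by 2. There were 18 false calls among 196, a larger share than the threshold of 0.05. In the data 3774 genes were called, so the simulation does not show how the test does with that many changes. Same-numbered libraries deviated together from their group means (correlations 0.245, 0.182 and 0.155, other pairs -0.141 to -0.0262). Deviations cancel within a group, so positive values for same-numbered libraries push those of other pairs down. A fit with the replicate number as a block, which takes the numbers as pairs, was run as an alternative. The main fit and the exact permutation tests did not use the numbers. The pairing is a hint from the data, and the labels do not say what a number stands for.

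The 6 genes and all lists were chosen with earlier results of these data known. Named were the 6 genes, the detected family relatives reported here and the 2 nearest patterns per gene. Of each list, up to 3 called genes of smallest p were named (with none called, the most abundant ones). Ahr, Nfe2l2, Cyp1a2, Ado, Alb, Krt19 and Sox9 were named after their values were seen. Also named outside this rule were Cps1, Serpina1e, Xist, Gclm, Gclc, Ahsg, Rhbg, Lgr5, Axin2 and Lect2. Sequences and start sites come from RefSeq (GRCm38.p6), shared sequence and coding identity from GENCODE M21 transcripts, aligned with Biopython 1.88. Alternatives used RLE, upper-quartile and no factors, other filters, DESeq2 1.42.0, limma 3.58.1 (voom; log2(FPKM + 1), log2(FPKM + 0.1)), the block, and each library left out. Some genes of the families and lists are not reported here and were left out of the lists.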

Additional observations from a re-analysis of the deposited data

How the results depend on the processing

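Scaled by library totals, Fmo1 stood at -0.4 (adjusted p = 0.0682), Fmo5 at -0.37 (0.184), Fmo4 at 0.76 (0.0306) and Aox1 at 0.01 (0.962), 1 of the 6 genes was lower and 1 higher, and over all genes 5844 were higher and 869 lower, against 1922 and 1852 with TMM; only the scaling differs between these fits. With the replicate block, which takes the numbers as pairs, Aox1 was called lower (-0.45, adjusted p = 0.025) and no other call of the 6 genes changed. Leaving out 1 library at a time, the log2 fold change ranged from -0.91 to -0.09 for Fmo2, from 0.07 to 0.71 for Fmo4, from -1.01 to -0.66 for Fmo5 and from -0.69 to -0.29 for Aox1. The number of the 6 genes called lower then ranged from 2 to 4, and the number called higher from 0 to 1. The difference in the Fmo1 to Fmo5 ratio ranged from -0.24 to 0.2 and changed sign without Fam210aHKO replicate 1 (0.04) or Ctrl replicate 2 (0.2). The other scalings, filters, DESeq2, limma-voom and limma on FPKM changed no call of the 6 genes. The cause of the difference between scalings was not tested, and 3 libraries per group limit the precision.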

Other observations

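Genes that mark the ends of the liver lobule fell in part beside the FMO and AOX genes. Of 9 pericentral genes 5 fell and 0 rose in edgeR's test, where 13.5% of all tested genes were lower and 14% higher. Their summed level was 4290 to 5760 CPM in Fam210aHKO and 11100 to 15800 CPM in Ctrl. With library totals 2 were lower and 1 higher, where 6.34% of tested genes were lower and 42.6% higher. The higher was Rhbg (log2 fold change 1.2, adjusted p = 0.00444), which was not called with TMM (0.75 and 0.0549). Lgr5 (-0.11), Axin2 (0.11) and Lect2 (-0.08) were not called with TMM either. Of 8 periportal genes 5 fell and 0 rose (7770 to 10400 CPM in Fam210aHKO and 15600 to 16100 CPM in Ctrl), and with library totals 5 were lower and 1 higher. Single genes carried much of both sums. Cyp2e1 gave most of the pericentral sum (mean 3360 CPM in Fam210aHKO and 10100 CPM in Ctrl). Cps1, the largest part of the periportal sum (4610 and 7260 CPM), was not called (edgeR adjusted p = 0.171). The periportal genes Hal (log2 fold change -2.18) and Sds (-2.41), of histidine and serine breakdown, fell, as did the pericentral gene Cyp2e1 (-1.59), a cytochrome P450. The difference between the lists was not tested.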
